A study of Mus musculus with 6 samples.

Results

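The STAT genes encode the transcription factors that carry cytokine signals to the nucleus, and 6 of them, Stat2, Stat3, Stat4, Stat5a, Stat5b and Stat6, are described here. Every array probe set whose platform annotation named 1 of these symbols and no other was taken, which gave 12 of the 22626 probe sets tested. In genes these are 6 of 12393. Other STAT genes were not analysed here. The comparison set 3 samples of CD4+CD25+ T cells with a floxed Hdac3 gene and a Foxp3 Cre (genotype HDAC3-fl/fl_FOXP3cre), called Hdac3 deleted here, against 3 wild type samples of the same phenotype. All 6 samples were on the C57BL6 background, and each had 1 Affymetrix Mouse430a array of total RNA. CD25 is carried by regulatory T cells and by recently activated T cells, and a Cre driven by Foxp3 acts in cells that express Foxp3, the regulatory T cell lineage factor. The labels do not say whether the wild type mice carried the Cre, give no age, and do not name the animals or cultures behind each sample, so every p-value rests on between-sample spread that may be technical only.

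A STAT protein waits in the cytoplasm until a cytokine binds its receptor. A Janus kinase bound to the receptor then phosphorylates a tyrosine of the STAT protein, which pairs with another STAT molecule, enters the nucleus and binds DNA. Stat2 serves type I interferon, Stat3 serves IL-6, IL-10 and IL-21, Stat4 serves IL-12, Stat5a and Stat5b serve IL-2, IL-7 and IL-15, and Stat6 serves IL-4 and IL-13. In regulatory T cells IL-2 signalling through Stat5 maintains Foxp3. Arrays measure the mRNA of these genes, not the phosphorylated protein.

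In the RefSeq annotation (GRCm38.p6) the 6 genes lie at 3 loci. Stat4 is on chromosome 1 (51987106 to 52107189). Stat6 (127642955 to 127660987) and Stat2 (128270498 to 128292853) are on chromosome 10 with 24 protein-coding genes between them. Stat5b (100780731 to 100859004), Stat5a (100859351 to 100885169) and Stat3 (100886806 to 100939594) are direct neighbours on chromosome 11. There Stat5b, on the minus strand, and Stat5a, on the plus strand, are 346 bases apart, and Stat5a and Stat3 are 1636 bases apart.

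STAT proteins bind the GAS motif, written TTCNNNGAA here, where N is any base, or the same with 4 spacer bases, the form that Stat6 favours. The complex of Stat2 with Irf9 binds the ISRE motif, taken here as GAAA, any 2 bases and GAAA. All 3 motifs were searched on both strands of each promoter in the RefSeq table (GRCm38.p6), 250 bases before to 50 bases after a transcription start. Of 32841 promoters, 8.3% held TTCNNNGAA, 6.95% held the form with 4 spacer bases and 3.44% held the ISRE. All 6 STAT genes had a promoter in the table, 9 in all. TTCNNNGAA was in 0 of the 9, the form with 4 spacer bases in 1, Stat2, and the ISRE in 2. Both promoters with an ISRE are printed because they belong to the STAT genes whose difference between groups kept its call under the most settings. They are followed by 2 examples of target genes described further on that hold a motif in this window. Other target genes, such as Isg20, Lta and Gzmb, also held a motif, and some, such as Oasl2, Pim1 and Furin, held none. Capitals mark the ISRE, on either strand, in the first 3 printed promoters and TTCNNNGAA in Socs3. None of the marked motifs overlapped another of those searched.
Stat2, chr10:128270248-128270547, plus strand: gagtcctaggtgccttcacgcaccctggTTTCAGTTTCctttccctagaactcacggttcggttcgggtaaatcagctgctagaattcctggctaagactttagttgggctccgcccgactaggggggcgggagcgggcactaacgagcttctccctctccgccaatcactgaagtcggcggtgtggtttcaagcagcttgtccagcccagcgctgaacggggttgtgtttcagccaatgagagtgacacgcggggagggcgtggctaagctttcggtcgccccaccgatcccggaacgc
Stat4, second start, chr1:52007990-52008289, plus strand: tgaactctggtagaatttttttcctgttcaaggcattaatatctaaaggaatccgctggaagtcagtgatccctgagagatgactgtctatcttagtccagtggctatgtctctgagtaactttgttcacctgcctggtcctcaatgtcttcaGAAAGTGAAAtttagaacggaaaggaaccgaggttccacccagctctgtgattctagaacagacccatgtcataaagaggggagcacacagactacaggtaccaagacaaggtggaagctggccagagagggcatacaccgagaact
Ifit1, chr19:34640639-34640938, plus strand: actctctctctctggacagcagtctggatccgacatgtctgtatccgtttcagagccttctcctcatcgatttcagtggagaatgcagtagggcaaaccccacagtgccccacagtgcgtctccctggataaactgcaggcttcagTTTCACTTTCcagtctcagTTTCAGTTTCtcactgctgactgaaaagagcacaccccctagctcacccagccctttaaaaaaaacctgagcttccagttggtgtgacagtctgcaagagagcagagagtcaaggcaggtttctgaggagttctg
Socs3, chr11:117969317-117969616, minus strand: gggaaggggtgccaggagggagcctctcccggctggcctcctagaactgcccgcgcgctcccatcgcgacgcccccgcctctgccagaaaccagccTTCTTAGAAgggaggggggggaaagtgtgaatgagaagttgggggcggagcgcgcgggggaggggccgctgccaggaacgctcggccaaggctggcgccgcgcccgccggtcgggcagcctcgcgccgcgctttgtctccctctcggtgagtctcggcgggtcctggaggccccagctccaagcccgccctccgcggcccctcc
The motif began at position -222 from the start site in Stat2, at -97 in Stat4, at -104 and -85 in Ifit1 and at -154 in Socs3. The first Stat4 start and all promoters of Stat3, Stat5a, Stat5b and Stat6 held none of the 3 motifs. A match of letters is a description and not a binding site.

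Values are log2 RMA signal, a normalized array signal on which 1 unit is a doubling, and differences give the Hdac3 deleted mean minus the wild type mean. The deleted gene was read first. Hdac3 measured 8.46, 8.51 and 8.50 in the Hdac3 deleted samples and 9.07, 9.04 and 9.01 in wild type. The difference was -0.55 (SE 0.0503, limma adjusted p = 7.45e-05), and whether the probe set lies in the deleted part is not known here. Over all 12393 genes 38.8% were called lower, so a fall of this size cannot check the labels. Background, read from 27 bacterial control probe sets, reached 5.16. A source field for the Hdac3 deleted samples names Hdac11 in place of Hdac3, and Hdac11 averaged 4.89 in these samples and 5.47 in wild type. Hdac11 was thus called lower as well, by a measured difference of -0.58 (limma adjusted p = 0.000864) and at least 1.24-fold, since its Hdac3 deleted mean lay inside background. Foxp3 lay below 5.16 in both groups (3.68 and 3.77), so its level could not be read, while 10 of the 11 measured regulatory T cell markers lay above it in at least 1 group. Of the 11, 7 were lower, led by Izumo1r (-2.03), Gpr83 (-1.90) and Ikzf2 (-1.58), 2 were higher, Entpd1 (2.14) and Il2ra (0.71), and 2 were not called, examples chosen after their values were seen. These counts stand beside 38.8% lower and 22.4% higher over all genes. Sample medians were 6.43 to 6.47 in Hdac3 deleted samples and 6.28 to 6.29 in wild type. Arrays correlated at 0.997 to 0.998 within Hdac3 deleted samples, at 0.996 to 0.997 within wild type, and at 0.921 to 0.923 between groups. The gap between 3' and 5' control probe sets was 0.48 to 0.52 in Hdac3 deleted samples and 0.20 to 0.51 in wild type for Gapdh. For Actb it was 0.46 to 0.52 in Hdac3 deleted samples and 0.30 to 0.47 in wild type.

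Markers of other cells moved with the groups and accompany every value below. All 21 measured macrophage markers were called higher, with a mean level of 11.80 to 11.87 in Hdac3 deleted samples and 5.50 to 5.58 in wild type. All 14 neutrophil markers were called higher as well, at 10.41 to 10.42 in Hdac3 deleted samples and 4.64 to 4.96 in wild type. All 10 measured T cell markers were called lower, and the mean of the 4 CD3 genes was 10.75 ± 0.017 in Hdac3 deleted samples and 12.22 ± 0.043 in wild type, a difference of -1.47. Of 9 B cell markers 4 were above background in a group, and 3 of these were higher and 0 lower. Of 9 dendritic cell markers 5 were higher and 1 lower, and 3 lay inside background in both groups. Of 7 natural killer cell markers 5 were higher and 0 lower, and 2 lay inside background in both groups. Of the 2 CD8 genes 0 were higher and 1 lower. All these counts stand beside 22.4% higher and 38.8% lower over all genes. Over genes above background in a group the shares were 29.6% and 44.7%. In pooled RNA, fewer cells of a type and less RNA per cell cannot be told apart, and the part of these markers in the STAT differences was not tested.

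Stat2 was called higher and Stat4, Stat5a and Stat5b were called lower as deposited, none by 2-fold, and Stat3 and Stat6 were not called. Tested with limma and adjusted across the whole array, 6 of the 12 STAT probe sets were called at adjusted p 0.05, against 57.6% of all probe sets. Of these 2 were higher, both for Stat2, where 20.1% of all probe sets were higher. The other 4 were lower, for Stat4, Stat5a and Stat5b, where 37.4% of all probe sets were lower. None of the 12 reached a 2-fold difference, a size that 12.2% of all probe sets reached with a call. The median difference was -0.20 over the 12 STAT probe sets and -0.17 over all probe sets. The 3 values of one group lay apart from the 3 of the other in 11 of the 12, against 64.6% of all probe sets. All 12 had group means above the background range.

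**Figure D1:**
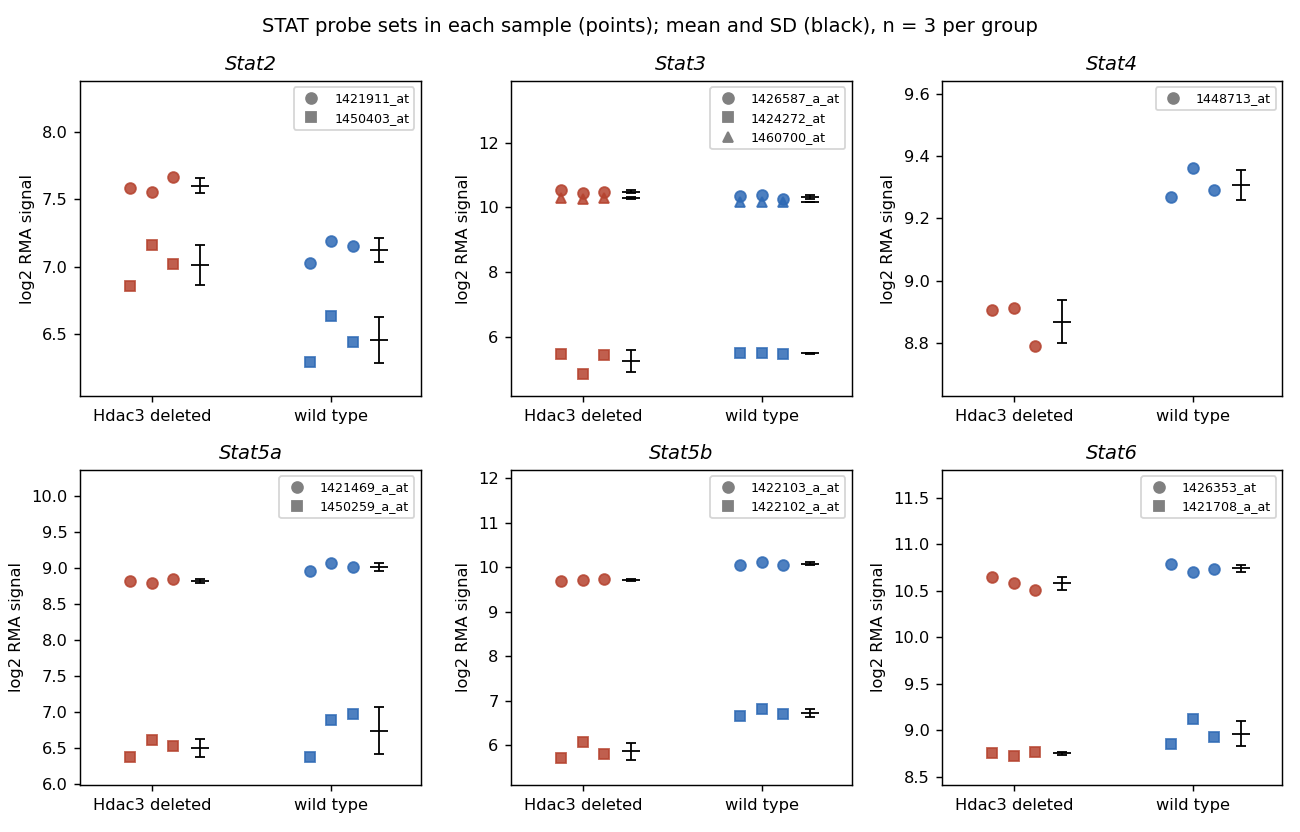
Log2 RMA signal (vertical axis, a different range in each panel) of every STAT probe set in the 3 Hdac3 deleted samples (left, red) and the 3 wild type samples (right, blue), with the mean and SD in black and 1 symbol per probe set. Both Stat2 sets lie higher in Hdac3 deleted samples, at 7.60 and 7.01, than in wild type, at 7.13 and 6.46, and Stat4 lies lower, at 8.87 against 9.31.

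Stat2, the partner of Irf9 in the interferon response, was higher in Hdac3 deleted samples on both of its probe sets. The first set, 1421911_at, measured 7.58, 7.56 and 7.66 in Hdac3 deleted samples, against 7.03, 7.19 and 7.16 in wild type. Each Hdac3 deleted value was above each wild type value. The means were 7.60 ± 0.056 and 7.13 ± 0.088 (SD, n = 3 each), a difference of 0.48 or 1.39-fold (SE 0.0701, 95% interval 0.31 to 0.64, limma adjusted p = 0.000904). The second set, 1450403_at, measured 6.86, 7.16 and 7.02 in Hdac3 deleted samples, against 6.29, 6.63 and 6.44 in wild type. It also separated the groups, with a difference of 0.56 (SE 0.112, adjusted p = 0.00429). The gap between the sets overlapped between groups, so the difference between the sets was not larger than the spread (exact permutation p = 0.6, two-sided, where 3 against 3 cannot go below 0.1). Of all probe sets, 14.1% had a higher difference than the first Stat2 set.

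Stat3, which carries signals of IL-6 and IL-10, was not called on any of its 3 probe sets. The brightest set, 1426587_a_at, measured 10.53, 10.44 and 10.47 in Hdac3 deleted samples, against 10.34, 10.38 and 10.26 in wild type. The groups did not overlap, but the difference was only 0.16 (SE 0.0623, 95% interval 0.01 to 0.30, limma adjusted p = 0.0639). In the separate fit over 12393 genes with 1 probe set each, which estimates the spread anew and adjusts over fewer features, the same difference had an SE of 0.0577 and an adjusted p of 0.0487, so its call depends on which fit is used. The second bright set, 1460700_at, averaged 10.28 ± 0.025 in Hdac3 deleted samples and 10.16 ± 0.011 in wild type, a difference of 0.12 (adjusted p = 0.109). The dim set 1424272_at read 5.46, 4.85 and 5.41 in Hdac3 deleted samples, against 5.49, 5.48 and 5.47 in wild type. Hdac3 deleted replicate 2 reached the background range there, and the difference of -0.24 did not pass (adjusted p = 0.226).

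Stat4, which carries the IL-12 signal that drives interferon gamma production, was lower on its only probe set, 1448713_at. It measured 8.90, 8.91 and 8.79 in Hdac3 deleted samples, against 9.27, 9.36 and 9.29 in wild type. All Hdac3 deleted values lay below all wild type values. The means were 8.87 ± 0.069 and 9.31 ± 0.049, a difference of -0.44 (SE 0.0648, 95% interval -0.59 to -0.29, limma adjusted p = 0.000915). Of all probe sets 78.9% had a higher difference.

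Stat5a and Stat5b encode near-identical proteins that serve the IL-2 receptor, so probe sets of one may take signal from the other, which cannot be checked without the probe sequences. Stat5b fell on both of its sets. The bright set 1422103_a_at measured 9.69, 9.71 and 9.73 in Hdac3 deleted samples, against 10.06, 10.11 and 10.05 in wild type. The groups lay far apart beside a within-group SD of 0.0196 and 0.0314. The difference was -0.36 (SE 0.0558, 95% interval -0.49 to -0.23, limma adjusted p = 0.00115). The dimmer set 1422102_a_at measured 5.72, 6.07 and 5.79 in Hdac3 deleted samples, against 6.65, 6.81 and 6.71 in wild type. Its difference of -0.86 (SE 0.103, adjusted p = 0.000296) was the largest in size among the 12 STAT probe sets, and 15.3% of all probe sets had a larger one. The sets thus agreed in direction and differed in size by 0.50, with no overlap of the per-sample gap between groups (exact permutation p = 0.1, two-sided, the smallest that 3 against 3 allows).

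Stat5a showed a smaller difference. Its bright set 1421469_a_at measured 8.82, 8.79 and 8.85 in Hdac3 deleted samples, against 8.96, 9.06 and 9.01 in wild type. The groups did not overlap, and the set fell by 0.19 (SE 0.0600, 95% interval -0.33 to -0.05, limma adjusted p = 0.0303). This call was lost without any 1 of 5 samples (adjusted p of up to 0.0904) and held without wild type replicate 1 (0.0312), and it was lost with the mean of both sets (0.091). Its second set, 1450259_a_at, read 6.37, 6.61 and 6.53 in Hdac3 deleted samples, against 6.37, 6.88 and 6.97 in wild type. The groups overlapped there through wild type replicate 1, and the difference of -0.24 did not pass (adjusted p = 0.24). Without that replicate it was -0.42 (adjusted p = 0.00959).

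Stat6, the factor of IL-4 and IL-13, was not called on either set, although both separated the groups. The set 1426353_at measured 10.65, 10.59 and 10.50 in Hdac3 deleted samples, against 10.78, 10.71 and 10.73 in wild type, a difference of -0.16 (95% interval -0.31 to -0.01, limma adjusted p = 0.065). The set 1421708_a_at measured 8.76, 8.73 and 8.77 in Hdac3 deleted samples, against 8.86, 9.12 and 8.93 in wild type, a difference of -0.21 (adjusted p = 0.0543). Without wild type replicate 1 the second set was called, at -0.27 (adjusted p = 0.0299). The Stat6 and Stat5a differences lay close to the median of all probe sets.

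**Figure D2:**
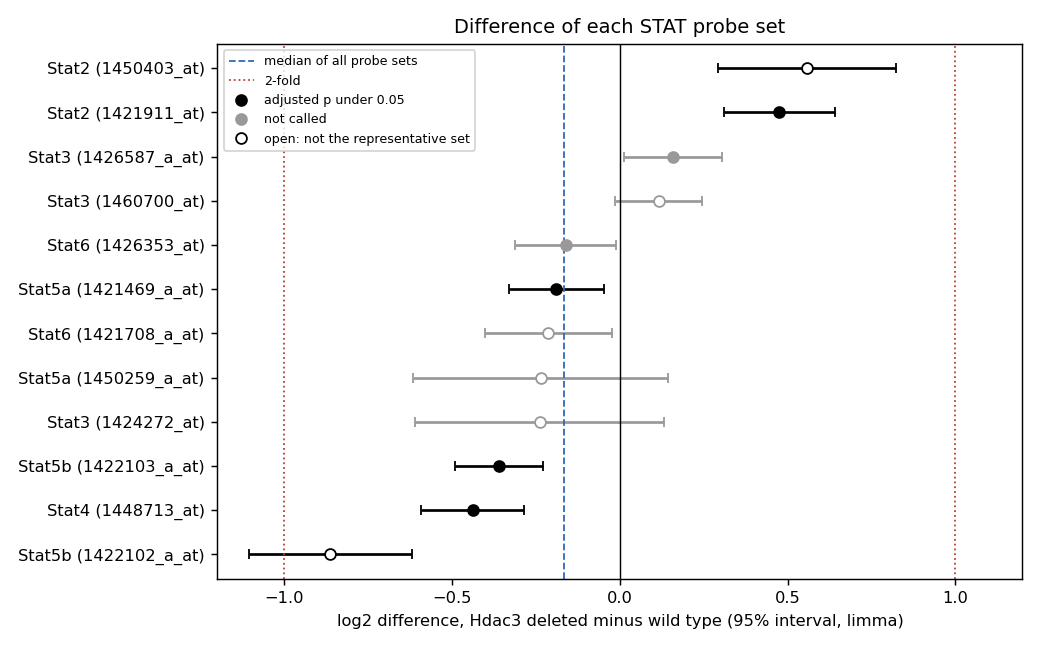
Log2 difference, Hdac3 deleted minus wild type (horizontal axis), of the 12 STAT probe sets with 95% intervals from limma; filled circles are the brightest set of a gene, open ones the others, black is called at adjusted p 0.05 and grey is not. Both Stat2 sets lie above 0, Stat4 and both Stat5b sets lie below the dashed median of all probe sets (-0.17), and no set reaches the dotted 2-fold lines; relative to the CD3 genes all 12 were higher, as were 97.8% of all probe sets.

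Ordered by the difference of the brightest set, the genes ran from Stat4 (-0.44) through Stat5b (-0.36), Stat5a (-0.19), Stat6 (-0.16) and Stat3 (0.16) to Stat2 (0.48). The 95% intervals of Stat4, Stat5b and Stat5a overlapped, and those of Stat5a and Stat6 overlapped. Those of Stat6 and Stat3 did not overlap, nor did those of Stat3 and Stat2. Of the 3 neighbours on chromosome 11, Stat5b and Stat5a were called lower as deposited and Stat3 was not called. A missing call is not an opposite direction, and the Stat5a and Stat3 differences depended on the scale, as given next.

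The scale set several of these directions. RMA gives relative levels, and the median difference of all genes was -0.17 as deposited, -0.33 after centring each array on its median, 0.00146 after cyclic loess and 1.30 when each sample was expressed relative to its 4 CD3 genes. Stat2 was higher on the first 3 of these scales (0.48, 0.32 and 0.65 in that order, each called) and was 1.94 relative to the CD3 genes. Stat4 was lower on the same 3 scales (-0.44, -0.60 and -0.25, each called) and higher relative to the CD3 genes (1.03, adjusted p = 1.26e-06). Stat5b was likewise -0.36, -0.52 and -0.16, where the last, with cyclic loess, was not called (adjusted p = 0.0523), and 1.11 relative to the CD3 genes. Stat5a was called lower with median centring (-0.35), was at -0.00078 with cyclic loess (adjusted p = 0.993) and was 1.28 relative to the CD3 genes. Stat3 was -0.0020 with median centring (adjusted p = 0.978), 0.37 with cyclic loess (adjusted p = 0.0024) and 1.63 relative to the CD3 genes. Stat6 was -0.32 with median centring (adjusted p = 0.00327), 0.05 with cyclic loess (adjusted p = 0.568) and 1.31 relative to the CD3 genes. The deposited split of 2 sets higher and 4 lower became 4 and 2 with cyclic loess and 2 and 6 with median centring. The CD3 scale moves every difference by the same amount, the size of the CD3 difference of -1.47, and 97.8% of all probe sets were called higher on it. The 12 STAT sets that were called higher there are near that share, and nothing about the STAT genes is read from their sign on that scale. The smallest difference on the CD3 scale was that of the dimmer Stat5b set, at 0.60.

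**Figure D3:**
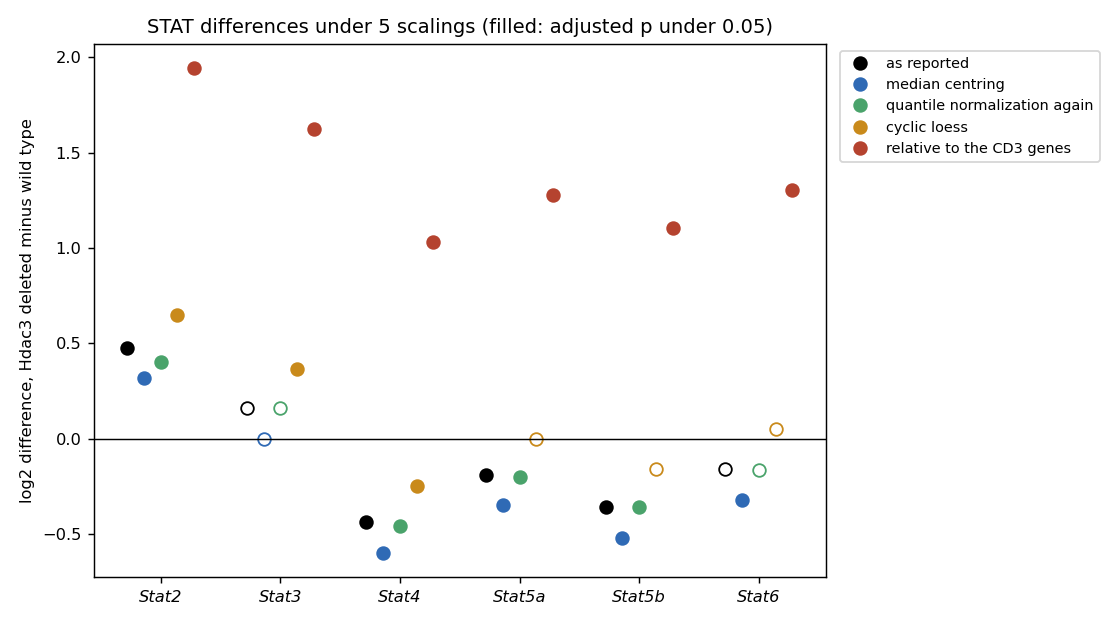
Log2 difference, Hdac3 deleted minus wild type (vertical axis), of the brightest probe set of each STAT gene under 5 scalings, filled where adjusted p was under 0.05. Under the 4 scalings other than the CD3 genes, Stat2 lies above 0 and Stat4 and Stat5b lie below 0. Relative to the CD3 genes, where 97.8% of all probe sets were called higher, Stat2, Stat4 and Stat5b lie at 1.94, 1.03 and 1.11. Stat3, Stat5a and Stat6 lie near 0 under at least 1 scaling.

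Genes on either side of the STAT proteins were then counted from lists by role, with 1 probe set per gene. Of 143 distinct genes listed, 131 were measured, of which 58 were called higher, 35 lower and 38 not called. Over all 12393 genes 61.2% were called, 22.4% higher and 38.8% lower. Over the genes above background in a group 29.6% were higher and 44.7% lower. Each list count below is to be read beside these shares. The pathway split was 52 and 51 with median centring, 72 and 24 with cyclic loess and 127 and 3 relative to the CD3 genes, a scale on which 97.7% of all genes were called higher. Among these 131, 24 did not clear background in either group, where a direction cannot be read, and the 107 others held 53 higher and 32 lower. Of the 131, 5 also stand in the marker lists, among them Csf3r and Mrc1. The median was 0.14, against -0.17 over all genes, beside a median of 7.04 for the macrophage markers.

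**Figure D4:**
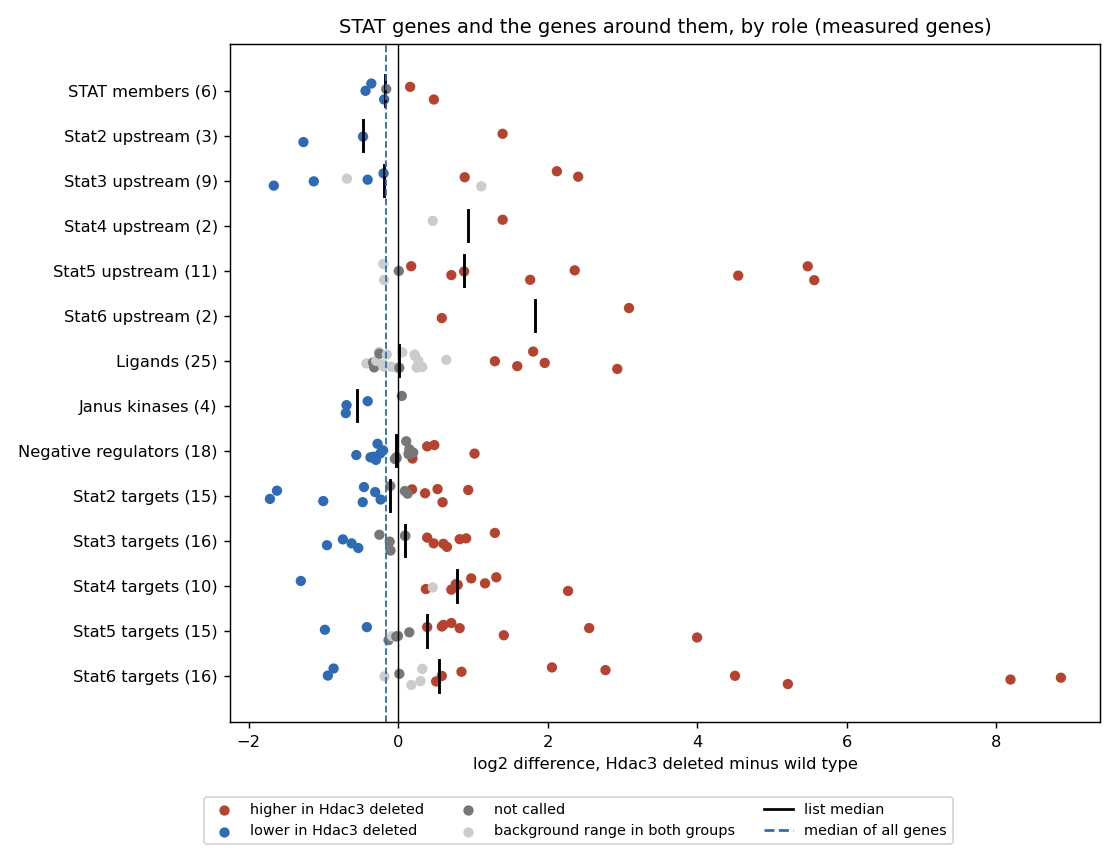
Log2 difference, Hdac3 deleted minus wild type (horizontal axis), of each measured gene by role (number in brackets), red for called higher, blue for called lower, dark grey for not called and light grey for genes inside the background range in both groups; black bars are list medians and the dashed line is the median of all genes (-0.17). Of the Janus kinases Jak1, Jak2 and Jak3 lie below 0 and Tyk2 lies at 0.05. All 4 are above 0 relative to the CD3 genes, a scale on which 97.7% of all genes were called higher. The points farthest to the right in the upstream list of Stat5 (Csf2rb, at least 24.4-fold) and the target list of Stat6 (Chil3, at least 139-fold) have wild type means inside the background range, so their plotted positions are not exact; Stat3 (0.16) is red because these points come from the fit over genes, where its adjusted p was 0.0487.

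Around Stat2, the interferon receptor chains went opposite ways. Ifnar2 measured 9.90, 9.91 and 9.87 in Hdac3 deleted samples, against 8.32, 8.51 and 8.67 in wild type, a rise of 1.39 (SE 0.0917, limma adjusted p = 1.44e-05). A second Ifnar2 set rose by only 0.27 (adjusted p = 0.00524). Ifnar1 measured 8.32, 8.31 and 8.22 in Hdac3 deleted samples, against 8.69, 8.81 and 8.76 in wild type, a fall of -0.47 that was 1.0 relative to the CD3 genes. Irf9, which forms the DNA-binding complex with Stat2, measured 9.01, 9.02 and 8.96 in Hdac3 deleted samples, against 10.24, 10.31 and 10.26 in wild type. It fell by 1.27 (SE 0.0526, adjusted p = 1.49e-06) and was 0.20 relative to the CD3 genes, while Stat2 rose. Both directions of Irf9 and Stat2 as deposited were also found with median centring and cyclic loess.

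The 15 measured target genes of Stat2, interferon-stimulated genes, split into 5 higher, 7 lower and 3 not called, with a median of -0.11. Over all genes 22.4% were higher and 38.8% lower. The split was 4 higher and 8 lower with median centring and turned to 7 higher and 5 lower with cyclic loess. Ifit1, whose protein binds viral RNA and whose promoter with 2 ISRE motifs is printed above, measured 7.70, 7.73 and 7.65 in Hdac3 deleted samples, against 9.42, 9.40 and 9.40 in wild type. It fell by 1.72 (SE 0.0509, adjusted p = 2.91e-07) and stayed lower relative to the CD3 genes, at -0.25. Usp18, which removes ISG15 from proteins and dampens the interferon receptor, fell by 1.62 and also stayed lower on that scale, at -0.16. The exonuclease gene Isg20 fell by 1.0, but was 0.46 relative to the CD3 genes. Oasl2, a member of the oligoadenylate synthetase family, rose by 0.94 (adjusted p = 0.000223).

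Of 9 measured receptor genes upstream of Stat3, Lifr and Osmr did not clear background in either group, and of the 7 others 3 were higher and 4 lower. The ligand-binding chain of the IL-10 receptor, Il10ra, measured 9.45, 9.49 and 9.41 in Hdac3 deleted samples, against 7.22, 7.32 and 7.44 in wild type, a rise of 2.12 (SE 0.0714, adjusted p = 5.51e-07). Its other sets did not show this, with 1 at 0.21 (adjusted p = 0.296) and 1 inside the background range in both groups. The second chain, Il10rb, rose by 0.89. Il6st, the shared gp130 chain of the IL-6 family, measured 8.95, 9.03 and 8.98 in Hdac3 deleted samples, against 10.12, 10.05 and 10.18 in wild type. It fell by 1.13 (adjusted p = 4.14e-06) and was 0.34 relative to the CD3 genes. The IL-27 receptor gene Il27ra fell by 1.67 and was still lower, at -0.20, relative to the CD3 genes.

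Of 16 target genes of Stat3, 7 were higher, 4 lower and 5 not called (7 and 7 with median centring), with a median of 0.09. Pim1, a survival kinase, rose by 0.82 and the transcription repressor gene Prdm1 by 0.91. The cytokine gene Il10 rose by 1.29, at 8.58, 8.46 and 8.52 in Hdac3 deleted samples against 7.04, 7.28 and 7.36 in wild type. Junb, an AP-1 subunit, fell by 0.62 and was 0.84 relative to the CD3 genes.

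Stat4 was lower as deposited. Of the 9 genes listed as its targets that were above background in a group, 8 were higher and 1 lower, with a median of 0.80. Over all genes above background in a group 29.6% were higher and 44.7% lower. The remaining one of the 10 measured targets, Il12rb2, did not clear background in either group. Furin, a proprotein convertase, measured 9.36, 9.35 and 9.28 in Hdac3 deleted samples, against 8.01, 8.04 and 8.02 in wild type, and rose by 1.31. Hlx, a homeobox gene of type 1 helper cells, was at least 4.52-fold higher, with its wild type mean inside the background range. Il2ra rose by 0.71. Il18r1, a chain of the IL-18 receptor, measured 8.08, 8.23 and 8.12 in Hdac3 deleted samples, against 9.44, 9.40 and 9.49 in wild type. It fell by 1.30 and was 0.16 relative to the CD3 genes (not called, adjusted p = 0.0554). Upstream, the IL-12 receptor gene Il12rb1 rose by 1.40, at 8.65, 8.64 and 8.57 in Hdac3 deleted samples against 7.32, 7.07 and 7.27 in wild type. Il12rb2 averaged 5.08 in Hdac3 deleted samples and 4.62 in wild type and gives no readable direction.

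Of the 11 measured receptor genes upstream of Stat5, 8 were higher and 0 lower, while Stat5b and Stat5a were lower as deposited. Il5ra and Ghr did not clear background in either group, and the 9 others held the 8 higher. Over all genes above background in a group 29.6% were higher and 44.7% lower. The split was 7 higher and 1 lower with median centring and 9 and 0 with cyclic loess. The largest rises were in receptor genes of the myeloid growth factors. Csf2rb, the shared chain of the GM-CSF, IL-3 and IL-5 receptors, measured 9.82, 9.79 and 9.69 in Hdac3 deleted samples, against 3.41, 4.58 and 4.61 in wild type, at least 24.4-fold higher (adjusted p = 6.2e-06). Csf2rb2, a close copy whose probe set may share signal with it, was at least 13.6-fold higher, and Csf2ra, the GM-CSF binding chain, rose by 4.55. A second Csf2ra set was at least 1.31-fold higher. Of the receptors for T cell cytokines, Il15ra rose by 2.36, Il2ra, the gene of the CD25 by which these cells are labelled, by 0.71 and Il2rb by 0.17. Il2ra measured 9.94, 9.98 and 9.97 in Hdac3 deleted samples, against 9.25, 9.21 and 9.30 in wild type. Il7r differed by 0.0068 (adjusted p = 0.915).

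Of 15 measured target genes of Stat5, 8 were higher, 2 lower and 5 not called (8 and 5 with median centring), with a median of 0.39. The granule protease gene Gzmb measured 11.94, 11.90 and 11.98 in Hdac3 deleted samples, against 7.81, 7.95 and 8.07 in wild type, and rose by 4.0 (SE 0.0759, adjusted p = 4.14e-08). The regulator gene Id2 rose by 2.55 and the lymphotoxin gene Lta by 1.41. Ccnd2, a D-type cyclin, fell by 0.98, and its 6 other sets were all lower; it was 0.49 relative to the CD3 genes. Of the feedback inhibitor genes in this list, Socs3 was called higher (0.39, limma adjusted p = 0.00166), and Cish and Socs2 were not called. Cish measured 10.75, 10.70 and 10.82 in Hdac3 deleted samples, against 10.59, 10.63 and 10.62 in wild type. The groups did not overlap for Cish, with a difference of 0.15 (95% interval 0.02 to 0.28, limma adjusted p = 0.0544). Socs2 measured 9.97, 10.02 and 9.97 in Hdac3 deleted samples, against 10.02, 9.99 and 10.02 in wild type, and the groups overlapped, with a difference of -0.03 (adjusted p = 0.661). Cish and Socs2 were picked after their values were seen, as were Il2rb, Il7r and Bcl2l1, a survival gene that differed by -0.0041 (adjusted p = 0.958).

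Both measured receptor genes upstream of Stat6 were higher. Il4ra measured 10.05, 10.04 and 10.04 in Hdac3 deleted samples, against 9.34, 9.50 and 9.54 in wild type, and rose by 0.58 (SE 0.0661, adjusted p = 0.000233). A second set rose by 0.73, and one more, at -0.26, was not called (adjusted p = 0.106). Il13ra1 was at least 4.07-fold higher. Of 16 target genes of Stat6, 12 were above background in a group, and of these 9 were higher, 2 lower and 1 not called, with a median of 1.45. Over all genes above background in a group 29.6% were higher and 44.7% lower. The 4 Stat6 targets with the smallest p are genes of alternatively activated macrophages. Chil3, a chitinase-like protein gene, was at least 139-fold higher, and the mannose receptor gene Mrc1, which is also in the macrophage marker list, at least 194-fold. The arginase gene Arg1 was at least 7.21-fold higher, and the chemokine gene Ccl24 rose by 5.21. Among the target genes of helper T cells, chosen after the values were seen, Gata3 fell by 0.94 and was 0.52 relative to the CD3 genes. Il4 lay close to background at 5.34 in Hdac3 deleted samples and 5.33 in wild type (adjusted p = 0.927), and Il5 and Il13 lay inside the range in both groups.

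The Janus kinases, which phosphorylate the STAT proteins, were lower in 3 of 4 as deposited, with median centring and with cyclic loess. Over all genes above background in a group 44.7% were lower as deposited. Relative to the CD3 genes 4 of 4 were higher, as were 97.7% of all genes, so nothing about the kinases is read from that sign. Jak1 measured 11.14, 11.15 and 11.10 in Hdac3 deleted samples, against 11.70, 11.92 and 11.85 in wild type, and fell by 0.69 (SE 0.0707, adjusted p = 0.000134). Jak2 measured 8.81, 8.96 and 8.85 in Hdac3 deleted samples, against 9.58, 9.59 and 9.55 in wild type, and fell by 0.70. Jak3, the partner of the common gamma chain, fell by 0.41, at 8.75, 8.77 and 8.78 in Hdac3 deleted samples against 9.07, 9.22 and 9.25 in wild type. Tyk2, which serves the interferon and IL-12 receptors, overlapped between groups and differed by 0.05 (adjusted p = 0.487), was called higher with cyclic loess (0.24) and was -0.11 with median centring. Relative to the CD3 genes Jak1, Jak2, Jak3 and Tyk2 were at 0.77, 0.77, 1.06 and 1.51.

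Of 18 negative regulators, 4 were higher, 7 lower and 7 not called, with a median of -0.03. Over all genes above background in a group 29.6% were higher and 44.7% lower. The split of the regulators was 9 and 2 with cyclic loess and 3 and 10 with median centring. It was 18 and 0 relative to the CD3 genes, where 97.7% of all genes were called higher. Ptpn1, a tyrosine phosphatase, rose by 1.02, at 11.37, 11.29 and 11.35 in Hdac3 deleted samples against 10.39, 10.25 and 10.32 in wild type. Socs3, the feedback inhibitor of Stat3 whose promoter holds a GAS motif, measured 10.81, 10.75 and 10.81 in Hdac3 deleted samples, against 10.47, 10.44 and 10.30 in wild type. It rose by 0.39 (SE 0.0642, adjusted p = 0.00166), and both of its other sets rose by 0.32. The phosphatase gene Ptpn2 fell by 0.37 and Socs4 by 0.56, and they were 1.09 and 0.91 relative to the CD3 genes.

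Of 25 measured ligand genes 16 did not clear background in either group. Of the 9 others 5 were higher and 0 lower, against 29.6% higher and 44.7% lower over all genes above background in a group. Ebi3, a chain of IL-27 and IL-35, rose by 1.59 and the leukaemia inhibitory factor gene Lif by 1.96, while a second Lif set had both group means inside the background range. Il15 was at least 2.82-fold higher and Csf2, the gene of GM-CSF, at least 2.58-fold. Among 35 further probe sets of the 47 pathway genes chosen by the naming rule, 28 were called in the same direction as the brightest set, 6 were not called and 1 was called the other way, an Il10ra set inside the background range.

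For each STAT gene the 2 other genes nearest in pattern were found by the distance between the 6 log2 values, each gene centred on its own mean, among 7947 genes above background in both groups. With 3 samples a group this distance is mostly the difference between groups, and it is given as a description. Nearest to Stat4 was Ifnar1 (-0.47, distance 0.0618), followed by the zinc finger gene Zfr (-0.43). Nearest to Stat2 were Stxbp2 (0.49), a factor of granule release, and the lipid phosphatase gene Inpp4a (0.48). Nearest to Stat5b were Ndufb7 (-0.35), a subunit of mitochondrial complex I, and Ptcd1 (-0.37). For Stat5a they were Ahnak (-0.18) and the mitochondrial ribosomal gene Mrpl13 (-0.18), for Stat6 they were Vps53 (-0.16) and the crystallin gene Crybb2 (-0.17), and for Stat3 they were Ccnl1 (0.13) and 4833420G17Rik (0.19). The number of genes within a distance of 0.1 was 8 for Stat2, 24 for Stat3, 41 for Stat4, 79 for Stat5a, 120 for Stat5b and 40 for Stat6.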

How the data were processed

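Biotin-labelled RNA of 6 samples was read on 1 Affymetrix Mouse430a array each, per the labels. The authors deposited log2 expression per probe set after robust multiarray average (RMA) normalization in MAYDAY 2.12 and used Student's test, a false discovery rate of 0.05 and a 2-fold threshold, per the series' design text. RMA brings the probe signals of all arrays to 1 distribution before summarising them, so a change in total RNA cannot be seen. The table held 22690 probe sets, and 64 controls were left out. By the platform annotation 20380 had 1 symbol, 691 several and 1555 none, and 20351 of the first matched RefSeq by identifier. A gene was represented by its probe set of highest mean.

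Groups came from titles. Tests were two-sided, with limma 3.58.1 in R 4.3.3, adjusted by Benjamini-Hochberg over all probe sets for STAT genes and over all genes for the pathway. "At least" folds run from the top of the background range (2.37 to 5.16). The test was tried on simulated data first, with 50 changed probe sets at each size. It recovered 4% of changes of 0.25 log2, 62% of changes of 0.5 and 100% of changes of 1. Only those probe sets were changed there, while 57.6% of all probe sets were called in the real data, where the adjusted cut is less strict. The recovered shares therefore do not carry over to the real comparison. Whether a small difference that was not called was missed cannot be read from them. Alternatives changed the test, the scaling, the filter on dim probe sets, the probe set of a gene and the samples included. The number of arrays, 3 per group, limits the precision. Named genes were all STAT probe sets, Hdac3, Hdac11 and Foxp3, and in each list all of up to 4 genes or the 4 with the smallest p; others are marked. The STAT genes, the lists and the tests were chosen with earlier results of these data known. Plots used Python 3.11.15 and matplotlib 3.10.9.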

Additional observations from a re-analysis of the deposited data

How the results depend on the processing

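The calls of Stat2 and Stat4 held in all 16 alternatives other than the CD3 scale, at differences of 0.32 to 0.65 and -0.60 to -0.25, and that of Stat5b in 14 of 15, at -0.61 to -0.16. Stat3 was called in 5 of 16, Stat5a in 7 of 15 and Stat6 in 4 of 16. No value without probe sets that can match several transcripts exists for Stat5a and Stat5b. The cause of these changes was not tested.

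Leaving out each sample gave 5 to 8 called STAT sets, 2 higher and 3 to 6 lower, 0 past 2-fold, 53 to 60 pathway genes higher and 33 to 37 lower. It moved Stat2 within 0.43 to 0.51, Stat3 within 0.12 to 0.19, Stat4 within -0.46 to -0.40, Stat5a within -0.22 to -0.16, Stat5b within -0.37 to -0.34 and Stat6 within -0.19 to -0.12. Il12rb2 lost its call without Hdac3 deleted replicate 1 (adjusted p = 0.0517). The called lower ligands, 2 as reported and both inside background, were 6 without Hdac3 deleted replicate 3 and 5 without wild type replicate 3, and 1 receptor upstream of Stat5 was lower without wild type replicate 3.

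Same-numbered samples did not deviate together (correlations 0.09, 0.08 and -0.19), and 2 of 6 samples correlated best with their own number. With the replicate number as a block 5 STAT sets were called, Stat5a was not (-0.19, adjusted p = 0.0725), and 57 pathway genes were higher and 35 lower. With the methods' t-test 4 STAT sets were higher and Stat3 was called (0.16). The trended robust prior called 10 sets, 4 of them higher, with Stat3 (0.16) and Stat6 (-0.16). Without the dimmest probe sets Stat3 (0.16) and Stat6 (-0.16) were called, with array weights Stat3 (0.17), and with the mean of a gene's sets Stat6 (-0.19) but not Stat5a (-0.21).

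With cyclic loess 4 sets were higher and 2 lower, Stat3 was 0.37, Stat5a -0.00078, Stat5b -0.16 and Stat6 0.050. With median centring Stat3 was -0.0020, Stat6 -0.32, the second bright Stat3 set -0.045 and Tyk2 -0.11. Past 2-fold lay 1 set with median centring and 1 with quantile normalization again, and 1 passed a 1.5-fold threshold. Relative to the CD3 genes 12 sets were called, 12 higher and 0 lower, 11 past 2-fold, with 127 pathway genes higher and 3 lower. As many as 97.8% of all probe sets and 97.7% of all genes were called higher there. On that scale Stat3 was 1.63, Stat4 1.03, Stat5a 1.28, Stat5b 1.11 and Stat6 1.31. The dim Stat3 set was 1.23 and the second sets of Stat5a, Stat5b and Stat6 were 1.23, 0.60 and 1.25. Signs also turned for Irf9 (0.20), Ifnar1 (1.0), Il6st (0.34), Jak2 (0.77), Jak1 (0.77), Jak3 (1.06), Socs4 (0.91), Ptpn2 (1.09), Isg20 (0.46), Junb (0.84), Il18r1 (0.16) and Ccnd2 (0.49). Over all settings, the CD3 scale included, 39 comparisons of a single list count moved by over 1.5 times or to or from 0, and 377 did not.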
